A study of Mus musculus with 16 samples.

Results

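The genes described here are 36 genes of the ATF4 amino acid response, in 4 roles: 9 stress factors and regulators, 12 enzymes of serine, folate and amino acid synthesis, 7 amino acid transporters, and 8 genes of tRNA charging and tRNA export. They were chosen by name, with earlier results of these data known. Each was read from the probe whose identifier maps to it, the brightest detected probe where there were several. Of the 36, 35 had a named probe and 34 could be tested, among 14094 genes tested in all. No probe was matched to Pycr1, an enzyme of proline synthesis. Slc7a5, the light chain of a large neutral amino acid transporter, had 1 probe that was well above background on only 7 of 16 arrays (3 of 4, 1 of 4, 2 of 4 and 1 of 4 in the groups in the order given below), so it was not tested. All 34 tested genes were above background on all 16 arrays.

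The study asked what loss of Tsc2 does to podocytes, the epithelial cells that cover the glomerular capillaries. TSC2 holds back mTORC1, and rapamycin inhibits mTORC1. Podocytes grew out of glomeruli isolated with magnetic beads from male Jcl:ICR mice, and their total RNA, carrying the dye Cy3, was measured on 16 Agilent mouse expression arrays of a single colour. The 4 groups of 4 samples were Tsc2Δpodocyte and Tsc2flox/flox without treatment, from mice aged 4 weeks, and both genotypes 1 week after rapamycin treatment, from mice aged 5 weeks. The paper describes rapamycin as injected into the mice from 4 weeks of age, and lists none in the podocyte medium. All mice carried the floxed Tsc2 allele on both chromosomes. Tsc2Δpodocyte mice also carried a transgene that expresses Cre in podocytes, and Tsc2flox/flox mice lacked Cre. The treated and untreated samples were on different slides, and on each slide one row held one genotype, so that treatment, age and slide cannot be told apart, nor can genotype and row. Whether each sample is a different animal is not given in the sources used here, and the p-values therefore reflect only how much these 16 samples scatter, which can be technical variation.

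ATF4 is a basic leucine zipper transcription factor whose mRNA is translated more when eIF2alpha is phosphorylated by one of its kinases, as happens in amino acid shortage or endoplasmic reticulum stress, and also when mTORC1 is active. Together with a C/EBP partner it binds the C/EBP-ATF response element in front of genes for amino acid synthesis, amino acid uptake and tRNA charging. Under longer stress it induces further factors, among them CHOP, the product of Ddit3, and the pseudokinase TRIB3, which in turn can restrain ATF4. Because much of this control acts on translation, the level of Atf4 mRNA need not follow the level of its protein, which arrays do not measure.

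The response element was searched as TGATGNAA, on both strands, in the window from 250 bases before to 50 bases after the start of each gene (RefSeq, build GRCm38.p6). Of the 36 genes 30 have such a window, and 8 of these hold the element, 26.7% against 4.51% of the 27025 genes with a window. A match describes these letters and is not a binding site. These 8 stretches of 30 bases, 1 for each gene, are shown because they carry the shared sequence of the response, with the element in capitals, read along the gene's own strand; position -1 is the last base before the start and 1 the first base of the transcript. In some genes the capitals show the reverse complement, where the element lies on the opposite strand.
Trib3, chr2:152344028-152344057, minus strand, element at 15 to 22: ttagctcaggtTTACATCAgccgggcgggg
Slc1a4, chr11:20332699-20332728, minus strand, element at -4 to 4: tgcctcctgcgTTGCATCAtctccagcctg
Asns, chr6:7693214-7693243, minus strand, element at -23 to -16: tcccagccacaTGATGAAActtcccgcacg
Chac1, chr2:119351038-119351067, plus strand, element at -193 to -186: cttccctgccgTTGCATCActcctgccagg
Nupr1, chr7:126625562-126625591, minus strand, element at -110 to -103: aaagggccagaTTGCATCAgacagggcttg
Pycr1, chr11:120643833-120643862, minus strand, element at -103 to -96: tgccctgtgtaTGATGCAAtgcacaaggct
Aars, chr8:111033840-111033869, plus strand, element at 10 to 17: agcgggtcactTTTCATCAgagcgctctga
Gars, chr6:55037960-55037989, plus strand, element at -30 to -23: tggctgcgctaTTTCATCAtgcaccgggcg

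The 120 bases before the start are given in full for 3 genes with different outcomes below: Ddit3, with the largest rise and no match in its window, Slc1a4, which holds the element and rose, and Asns, which holds it and did not pass the test. Capitals again mark the element, which in Slc1a4 runs on past the start.
Ddit3, chr10:127290673-127290792, plus strand: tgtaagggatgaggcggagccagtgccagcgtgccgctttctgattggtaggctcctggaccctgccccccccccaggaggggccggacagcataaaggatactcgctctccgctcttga
Slc1a4, chr11:20332714-20332833, minus strand: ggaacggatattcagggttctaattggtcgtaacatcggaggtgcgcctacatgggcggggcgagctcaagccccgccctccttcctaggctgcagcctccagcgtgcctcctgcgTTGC
Asns, chr6:7693210-7693329, minus strand: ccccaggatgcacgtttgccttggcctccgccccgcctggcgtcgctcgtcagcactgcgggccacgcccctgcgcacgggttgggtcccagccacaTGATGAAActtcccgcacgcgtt

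Levels below are the log2 of a probe's background-subtracted signal minus the log2 of its array's 75th percentile, so 0 is the 75th percentile of that array and levels are compared only within a probe. A difference is a log2 fold change of Tsc2Δpodocyte over Tsc2flox/flox with its standard error from limma, and a gene passed where the p adjusted over all tested probes was under 0.05. Values of 4 samples are in the order of replicates 1 to 4. Tsc2 itself was lower in the Tsc2Δpodocyte samples: its brighter probe read 1.93 to 2.31 against 2.95 to 3.71 without treatment and 2.05 to 2.73 against 2.83 to 3.65 with rapamycin. The position of that probe relative to the deleted exons was not examined. Correlations between arrays of a group were 0.978 to 0.992. All 14 podocyte markers listed passed the detection filter. So did 12 of 12 macrophage, 10 of 10 endothelial, 10 of 10 mesangial, 8 of 8 parietal epithelial and 6 of 10 tubule markers. Genes listed as markers of other cells thus gave signal, and which cells it came from was not determined. The paper reports that nearly all explant cells stained for the podocyte marker WT1. In such bulk RNA, fewer cells of a type and less RNA per cell cannot be told apart.

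Without treatment, a part of the response was higher in Tsc2Δpodocyte podocytes, while the transcript of Atf4 itself did not pass the test. Ddit3 and Trib3 rose 2.93-fold and 2.34-fold, Cebpb 1.78-fold and Mthfd1l 1.73-fold, and smaller rises passed for Slc1a4, Atf5, Psph, Eprs, Shmt2 and Wars. Phgdh, the enzyme that commits carbon to serine, and Slc7a1, a cationic amino acid transporter, fell. In all, 10 of 34 genes rose and 2 fell, where 10.3% of all tested genes rose and 9.2% fell (19.5% either way). The median difference was 0.16 over the 34 genes and -0.01 over all 14094. Of the 12 genes, 5 also changed by at least 1.5-fold, all of them upward. Among all 14094 tested genes 1413 passed with such a change, in either direction. The groups did not overlap for 14 of the 34 genes, 12 higher and 2 lower, where 27% of all tested genes did not overlap, 13.5% higher and 13.5% lower.

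Of the 12 calls 7, those of Ddit3, Trib3, Cebpb, Mthfd1l, Psph, Slc1a4 and Eprs, held under each of 29 alternative settings, which included leaving out each of the 16 arrays. The other 5 were each lost under some of them: Slc7a1 under 4, Atf5 under 6, Phgdh and Wars under 10 each and Shmt2 under 18. Markers of other cells also differed between the untreated genotypes: the mean level of the 8 parietal epithelial markers was 1.60 to 2.38 in Tsc2Δpodocyte and 2.60 to 3.22 in Tsc2flox/flox samples, with 3 of the 8 lower, and that of the 10 mesangial markers was 2.61 to 3.04 and 2.11 to 2.46, with 3 of the 10 higher. Their summed levels, in multiples of the 75th percentile, were 40.7 to 134 and 97.3 to 185 for the parietal set and 712 to 979 and 635 to 802 for the mesangial set. Macrophage marker means were -0.47 to 0.42 and -1.34 to -0.04, with 2 of 12 higher. The part of the parietal and mesangial markers in the differences below was not tested. With the macrophage mean as a covariate 10 genes rose and 1 fell, and with the endothelial mean 9 rose and 2 fell.

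**Figure D1:**
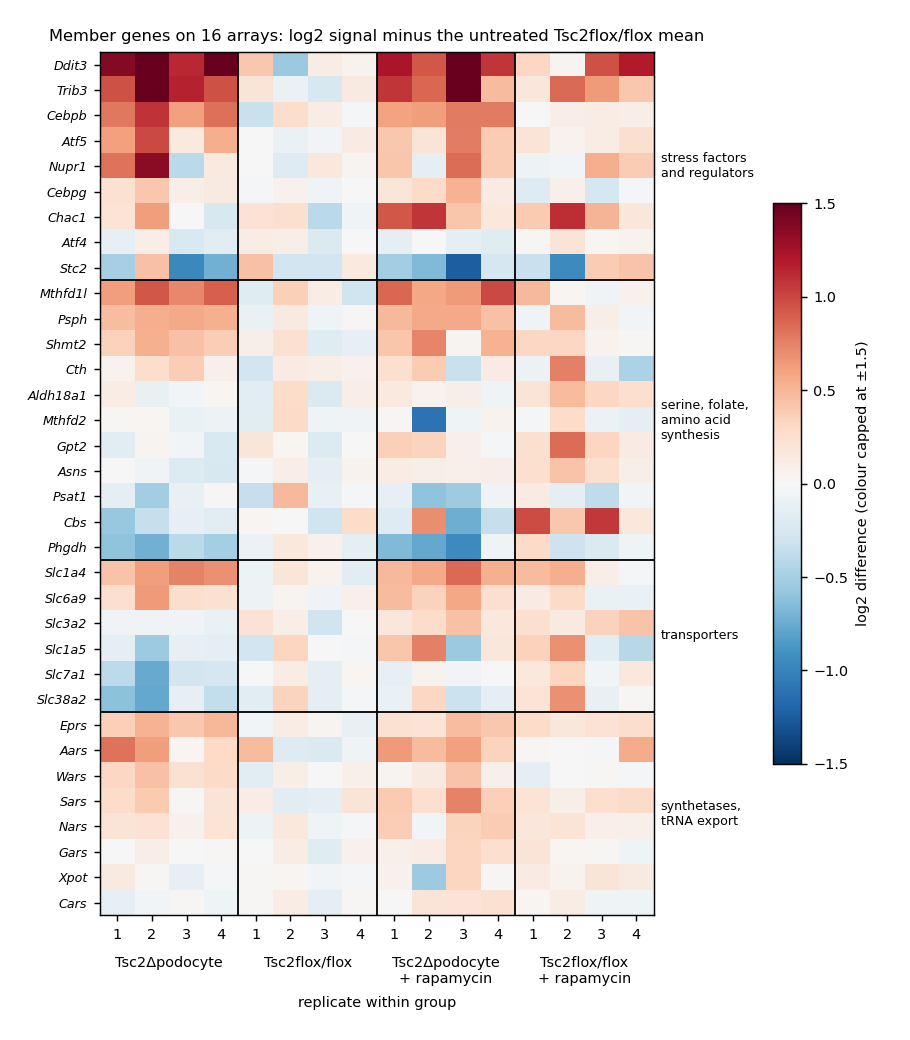
Level of each of the 34 genes (rows, by role and ordered by the untreated difference) on each of the 16 arrays (columns, replicates 1 to 4 of each group), as the log2 difference from the mean of the 4 untreated Tsc2flox/flox arrays, with colour capped at 1.5. Ddit3, Trib3, Cebpb, Mthfd1l and Psph are red on all 8 Tsc2Δpodocyte arrays, and Atf4 and Asns are pale throughout. Phgdh and Slc7a1 are blue on the 4 untreated Tsc2Δpodocyte arrays. Phgdh is also blue on treated Tsc2Δpodocyte replicates 1 to 3 and pale on replicate 4.

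Among the stress factors, 4 of 9 rose and none fell, where 10.3% of all tested genes rose and 9.2% fell. The median difference was 0.48, beside -0.01 over all tested genes. Ddit3 encodes CHOP, a C/EBP family factor of endoplasmic reticulum stress. Its level was 3.10, 3.80, 2.86 and 3.33 in the untreated Tsc2Δpodocyte samples and 2.12, 1.16, 1.83 and 1.77 in the Tsc2flox/flox samples. The lowest Tsc2Δpodocyte sample was thus above the highest Tsc2flox/flox sample, and the difference was 1.55 (standard error 0.34, adjusted p = 0.00645). Trib3, the pseudokinase induced by ATF4 and CHOP, read 4.08, 4.97, 4.28 and 4.08 against 3.32, 3.02, 2.89 and 3.26. Again no sample of one genotype lay within the range of the other, with a difference of 1.23 (standard error 0.24, adjusted p = 0.00333).

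Cebpb, a C/EBP factor that pairs with ATF4, had the smallest p of the 34 genes. It read 4.08, 4.37, 3.90 and 4.11 in Tsc2Δpodocyte and 2.95, 3.55, 3.39 and 3.25 in Tsc2flox/flox samples, a difference of 0.83 (standard error 0.12, adjusted p = 0.00057) with no overlap. Atf5, a factor related to ATF4 and likewise controlled by translation, read 6.99, 7.37, 6.53 and 6.92 against 6.38, 6.28, 6.34 and 6.50. The groups lay close together without overlapping, and the difference was 0.58 (standard error 0.15, adjusted p = 0.0186). Its other probe gave 0.49 (adjusted p = 0.0482). The call of Atf5 was lost without Tsc2Δpodocyte replicate 2 or without Tsc2flox/flox replicate 2, and under 4 other settings: quantile normalization, no filter on dim probes, only the 8 arrays compared and the adjusted t-test.

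Atf4 itself did not pass. It read 7.05, 7.27, 6.95 and 7.02 in Tsc2Δpodocyte and 7.29, 7.27, 6.96 and 7.18 in Tsc2flox/flox samples, which overlap almost fully. The difference was -0.10 (95% confidence interval -0.30 to 0.10, adjusted p = 0.474), and a dimmer probe of Atf4 gave -0.35 (adjusted p = 0.0843). The remaining stress genes did not pass either. Cebpg, whose product forms dimers with ATF4, differed by 0.22 (adjusted p = 0.166), with all 4 Tsc2Δpodocyte samples (0.99, 1.16, 0.85 and 0.89) above all 4 Tsc2flox/flox samples (0.73, 0.83, 0.71 and 0.77). Chac1, which breaks down glutathione, differed by 0.15 (95% confidence interval -0.39 to 0.68), Nupr1, a small stress-induced chromatin protein, by 0.48 (-0.18 to 1.13) and Stc2, a secreted glycoprotein, by -0.44 (-1.17 to 0.30).

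Single samples of both genotypes stood out, those of Tsc2Δpodocyte across the stress genes. In untreated Tsc2Δpodocyte replicate 2 all 9 stress genes were at the highest level of the 4 samples. This sample was the highest of its group for 40.2% of all tested genes. Replicate 3 was the lowest of its group for 7 of the 9, against 34.8% of all tested genes. With rapamycin, replicate 3 of Tsc2Δpodocyte was the highest for 5 of the 9, among them Ddit3 at 4.08, against 38.2% of all tested genes. These 2 high samples also had the highest mean level of the 14 podocyte markers in their groups, 2.06 where the others read 1.06 to 1.44, and 2.22 where the others read 1.33 to 1.74. The part of podocyte content in these values was not tested. Without untreated Tsc2Δpodocyte replicate 2, the calls of Ddit3, Trib3 and Cebpb remained. Over all 34 genes, untreated Tsc2flox/flox replicate 2 was the highest of its group for 22, against 30.3% of all tested genes. Treated Tsc2flox/flox replicate 2 was the highest for 18 of the 34, against 25.4%.

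**Figure D2:**
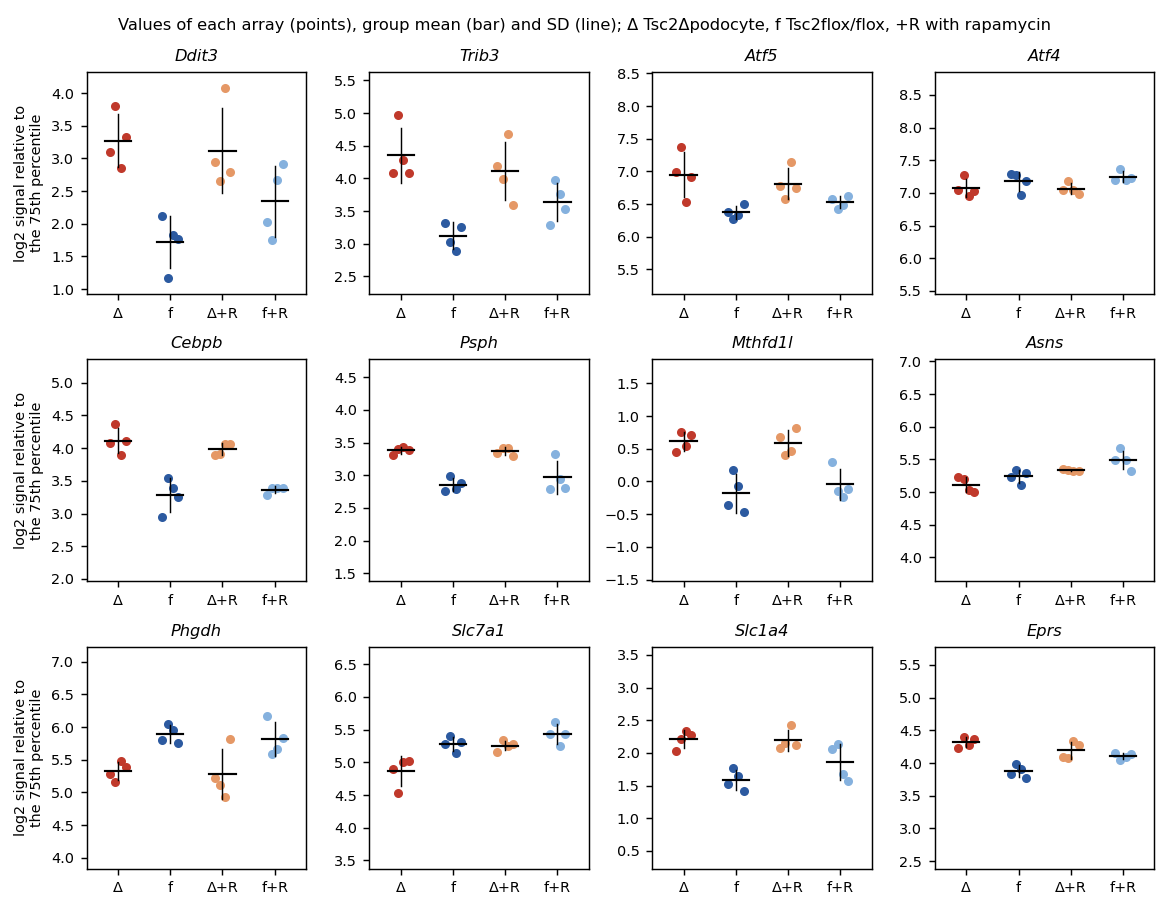
Level of 12 genes (log2 signal relative to the array's 75th percentile, every panel spanning the same range) in each of the 4 samples of the 4 groups, with the group mean as a bar and the SD as a line. Ddit3, Trib3, Cebpb and Mthfd1l separate the untreated genotypes upward and Phgdh and Slc7a1 downward, while Atf4 and Asns overlap.

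Among the 11 tested enzymes 3 rose and 1 fell, where 10.3% of all tested genes rose and 9.2% fell. Their median difference was -0.03, beside -0.01 over all tested genes. The enzymes of serine synthesis moved in opposite directions. Phgdh, which takes the first step from 3-phosphoglycerate, read 5.29, 5.17, 5.48 and 5.38 in untreated Tsc2Δpodocyte and 5.80, 6.05, 5.96 and 5.75 in Tsc2flox/flox samples, lower without overlap by 0.56 on the log2 scale (difference -0.56, standard error 0.17, adjusted p = 0.0370), a 1.47-fold fall. Psph, which takes the last step, read 3.31, 3.40, 3.43 and 3.39 against 2.76, 2.99, 2.79 and 2.88. The 4 Tsc2Δpodocyte values lay close together and all above the Tsc2flox/flox values, with a difference of 0.53 (standard error 0.11, adjusted p = 0.00400). Psat1, which takes the step between them, differed by -0.18 (95% confidence interval -0.58 to 0.21, adjusted p = 0.520). The call of Phgdh was lost without any 1 of 7 of the 8 untreated arrays, the exception being Tsc2Δpodocyte replicate 3. It was also lost with the macrophage marker mean as a covariate, chosen after seeing the data (difference -0.45, adjusted p = 0.153), with a replicate block and with no filter on dim probes.

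In the mitochondrial folate pathway, which takes carbon from serine, Mthfd1l and Shmt2 rose. Mthfd1l, a synthetase, releases formate. It read 0.45, 0.76, 0.54 and 0.71 in Tsc2Δpodocyte and -0.36, 0.18, -0.06 and -0.47 in Tsc2flox/flox samples. The groups did not overlap, and the difference was 0.79 (standard error 0.16, adjusted p = 0.00366). Shmt2, which converts serine to glycine and loads folate, read 2.52, 2.70, 2.62 and 2.55 against 2.26, 2.40, 1.99 and 2.05, a difference of 0.42 (standard error 0.14, adjusted p = 0.0457) with no overlap. Its call was the least stable of the 12 and was lost without any 1 of 12 of the 16 arrays, 7 of them untreated, and under 6 other settings, among them the macrophage (adjusted p = 0.138) and endothelial marker means as covariates. Mthfd2, the dehydrogenase that stands between these 2 enzymes, differed by -0.03 (95% confidence interval -0.48 to 0.41).

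Asns, asparagine synthetase, a classical target of ATF4, read 5.23, 5.19, 5.04 and 5.00 in Tsc2Δpodocyte and 5.23, 5.34, 5.11 and 5.30 in Tsc2flox/flox samples. The groups overlapped, and the difference was -0.13 (95% confidence interval -0.31 to 0.06, adjusted p = 0.321), with -0.15 for a further probe. The other enzymes did not pass: Aldh18a1 of proline synthesis differed by -0.0046 (95% confidence interval -0.24 to 0.23), Gpt2, an alanine transaminase, by -0.10 (-0.41 to 0.21), and Cth and Cbs of the transsulfuration pathway by 0.19 (-0.28 to 0.66) and -0.30 (-0.87 to 0.27).

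Of the 6 tested transporters 1 rose and 1 fell, where 10.3% of all tested genes rose and 9.2% fell. Their median difference was -0.15, beside -0.01 over all tested genes. Slc1a4, which carries alanine, serine and cysteine, read 2.02, 2.21, 2.33 and 2.27 in untreated Tsc2Δpodocyte and 1.52, 1.77, 1.65 and 1.42 in Tsc2flox/flox samples. It was higher without overlap, by 0.62 (standard error 0.13, adjusted p = 0.00660). Slc7a1, which carries arginine and lysine, read 4.90, 4.53, 5.00 and 5.03 against 5.29, 5.40, 5.14 and 5.31. It was lower without overlap (difference -0.42, standard error 0.11, adjusted p = 0.0192), a 1.34-fold fall that did not pass without Tsc2flox/flox replicate 2, nor with no filter on dim probes, only the 8 arrays compared or the adjusted t-test. Slc6a9, a glycine transporter, differed by 0.35 without overlap and narrowly missed the threshold (adjusted p = 0.0523). It passed under 8 alternative settings, among them the deposited values, the macrophage covariate and the unadjusted t-test. Slc38a2, a neutral amino acid transporter that adapts to amino acid supply, differed by -0.47 (adjusted p = 0.106), Slc1a5, a glutamine transporter, by -0.24 (95% confidence interval -0.81 to 0.34) and Slc3a2, the heavy chain that pairs with several light chains, by -0.07 (-0.30 to 0.17), with 0.30 (adjusted p = 0.0991) for a further probe of Slc3a2.

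In the tRNA group 2 of 8 rose and none fell, where 10.3% of all tested genes rose and 9.2% fell. The median difference was 0.20, beside -0.01 over all tested genes. Eprs, which charges the tRNAs of glutamate and proline, read 4.23, 4.39, 4.28 and 4.37 in Tsc2Δpodocyte and 3.84, 3.98, 3.91 and 3.77 in Tsc2flox/flox samples. It was higher without overlap, by 0.44 (standard error 0.08, adjusted p = 0.00218), and 3 of its 4 probes passed. Wars, the tryptophan enzyme, read 5.32, 5.45, 5.24 and 5.31 against 4.86, 5.10, 5.00 and 5.09, a difference of 0.32 (standard error 0.09, adjusted p = 0.0308) with no overlap. A further probe of Wars gave 0.21 (adjusted p = 0.235), and the call was lost without any 1 of 5 untreated arrays, replicates 1, 2 and 4 of Tsc2Δpodocyte and 1 and 3 of Tsc2flox/flox, and under 5 other settings, among them the mean of the gene's probes. Aars (alanine) differed by 0.44 with overlap (adjusted p = 0.123), Sars (serine) by 0.22, Nars (asparagine) by 0.17, Gars (glycine) by 0.03, Cars (cysteine) by -0.05 and Xpot, the exporter of tRNA from the nucleus, by 0.00, and none of these 6 passed.

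**Figure D3:**
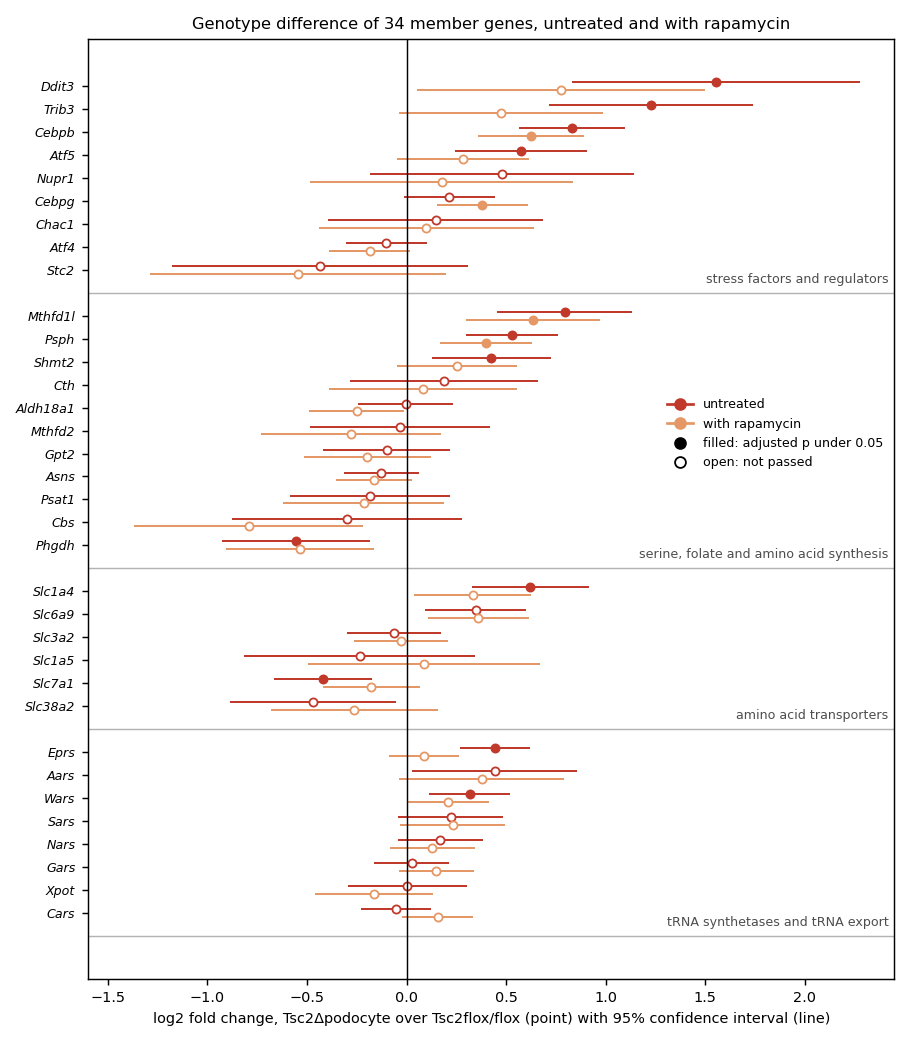
Log2 fold change of Tsc2Δpodocyte over Tsc2flox/flox for each of the 34 genes, by role, without treatment (red) and with rapamycin (orange); points are the differences, lines their 95% confidence intervals, and filled points passed at an adjusted p under 0.05. There are 12 filled points without treatment, 10 of them to the right of 0, and 4 with rapamycin, all to the right.

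With rapamycin, fewer of these genes passed between the genotypes. Of the 34 genes 4 rose and none fell, where 6.2% of all tested genes rose and 4.97% fell (11.2% either way), and the median difference was 0.11 against 0.01 over all tested genes. The 4 were Cebpb, Mthfd1l, Psph and Cebpg, of which the first 3 had also passed without treatment. Groups did not overlap for 6 of the 34, 4 higher and 2 lower, where 18.2% of all tested genes did not overlap, 10.7% higher and 7.49% lower. Among the markers, 2 of 14 podocyte markers were higher, 2 of 8 parietal markers lower, 1 of 10 mesangial markers higher and 1 lower, and 1 of 6 tubule markers lower, with parietal means of 2.14 to 3.66 and 2.92 to 3.94, and their part in these differences was not tested.

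Cebpb read 3.89, 3.92, 4.07 and 4.07 in treated Tsc2Δpodocyte and 3.28, 3.38, 3.39 and 3.39 in treated Tsc2flox/flox samples, a difference of 0.62 (standard error 0.12, adjusted p = 0.00794) with no overlap, and it passed under all 29 alternative settings. Mthfd1l read 0.68, 0.40, 0.46 and 0.82 against 0.30, -0.14, -0.23 and -0.11, also without overlap, with a difference of 0.64 (standard error 0.16, adjusted p = 0.0205). Psph read 3.34, 3.42, 3.42 and 3.30 against 2.79, 3.33, 2.94 and 2.81. Here 1 Tsc2flox/flox sample, replicate 2, lay within the range of the other group, and the difference was 0.40 (standard error 0.11, adjusted p = 0.0282). Cebpg read 0.94, 1.05, 1.28 and 0.88 against 0.57, 0.84, 0.50 and 0.73, a difference of 0.38 (standard error 0.10, adjusted p = 0.0337) without overlap, and 0.30 for a further probe (adjusted p = 0.137). The count of 4 fell to 1 without Tsc2Δpodocyte replicate 1 or without Tsc2flox/flox replicate 3 or 4, and to 2 without Tsc2Δpodocyte replicate 2 or 3 or Tsc2flox/flox replicate 1.

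Ddit3 with rapamycin read 2.94, 2.65, 4.08 and 2.80 in Tsc2Δpodocyte and 2.03, 1.76, 2.67 and 2.91 in Tsc2flox/flox samples. The ranges overlapped, and the difference of 0.78 (95% confidence interval 0.06 to 1.49) did not pass (adjusted p = 0.156). Trib3 read 4.20, 3.99, 4.67 and 3.59 against 3.29, 3.97, 3.77 and 3.53, a difference of 0.47 (95% confidence interval -0.04 to 0.98, adjusted p = 0.225) with overlap. Atf5 read 6.78, 6.57, 7.14 and 6.75 against 6.58, 6.43, 6.49 and 6.62, overlapping by its lowest Tsc2Δpodocyte sample, with a difference of 0.28 (adjusted p = 0.260). Atf4 read 7.04, 7.18, 7.04 and 6.99 against 7.20, 7.37, 7.20 and 7.23. All 4 Tsc2Δpodocyte values were lower, though the difference of -0.19 (95% confidence interval -0.38 to 0.01) did not pass (adjusted p = 0.220), and the dimmer probe of Atf4 gave 0.13 (adjusted p = 0.606), the opposite sign.

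Asns read 5.35, 5.33, 5.32 and 5.33 in treated Tsc2Δpodocyte and 5.50, 5.67, 5.48 and 5.33 in treated Tsc2flox/flox samples, a difference of -0.16 (adjusted p = 0.247). Phgdh read 5.23, 5.12, 4.94 and 5.82 against 6.17, 5.58, 5.67 and 5.83. Replicate 4 of Tsc2Δpodocyte stood within the range of the other group, and the difference of -0.54, close in size to the -0.56 without treatment, had an adjusted p of 0.0607. Shmt2 read 2.58, 2.90, 2.22 and 2.70 against 2.49, 2.49, 2.23 and 2.19, which overlap (difference 0.25, adjusted p = 0.262). Of the other enzymes Cbs came nearest to the threshold (difference -0.79, adjusted p = 0.0728, with overlap), and Aldh18a1 was lower in all 4 Tsc2Δpodocyte samples without passing (difference -0.25, adjusted p = 0.161).

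The transporters and synthetases gave no call with rapamycin, where 11.2% of all tested genes passed. Slc1a4 read 2.07, 2.15, 2.43 and 2.12 in Tsc2Δpodocyte and 2.07, 2.13, 1.68 and 1.57 in Tsc2flox/flox samples (difference 0.33, adjusted p = 0.130). Slc7a1 read 5.16, 5.33, 5.25 and 5.29 against 5.44, 5.61, 5.25 and 5.44 (difference -0.18, adjusted p = 0.344). Both genes overlapped between the genotypes, as did Slc6a9 (difference 0.36, adjusted p = 0.0628). Eprs read 4.10, 4.07, 4.34 and 4.27 against 4.15, 4.04, 4.10 and 4.14, with overlap and a difference of 0.09 (adjusted p = 0.529). Wars read 5.05, 5.15, 5.44 and 5.09 against 4.87, 5.01, 5.03 and 4.98, all 4 Tsc2Δpodocyte samples being higher, by 0.21 (adjusted p = 0.173).

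Whether the genotype difference itself changed with rapamycin was tested as an interaction, and no gene of the 34 passed in limma, as none of the 14094 tested genes did (0%). At an unadjusted p under 0.05 there were 2 of the 34, where 7.39% of all tested genes were (4.01% positive, 3.38% negative). Both were negative: Eprs with -0.36 (95% confidence interval -0.60 to -0.11, unadjusted p = 0.00709, adjusted p = 0.624) and Trib3 with -0.76 (-1.47 to -0.04, unadjusted p = 0.0404, adjusted p = 0.670). The interaction of Ddit3 was -0.78 (-1.79 to 0.24), that of Cebpb -0.21 (-0.58 to 0.16) and that of Phgdh 0.02 (-0.50 to 0.54). So a gene that passed without treatment and not with rapamycin is not shown to differ between the treatments. The median interaction was -0.21 over the 9 stress genes, -0.10 over the 34 genes and 0.01 over all tested genes.

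Rapamycin within a genotype moved no gene past the threshold in limma. In Tsc2Δpodocyte podocytes 0 of 34 genes passed, where 3.51% of all tested genes did (1.97% higher, 1.53% lower), with 4 of 34 at an unadjusted p under 0.05, where 24.2% of all tested genes were (13.1% higher, 11% lower). The 4 were all higher: Slc7a1 (0.39, unadjusted p = 0.00339, adjusted p = 0.0663), Slc3a2 (0.33, unadjusted p = 0.00916), Cars (0.21, unadjusted p = 0.0208) and Asns (0.22, unadjusted p = 0.0245). The further probes had the opposite sign for Slc3a2 (-0.17) and Cars (-0.20 and -0.19) and the same sign for Asns (0.26). In Tsc2flox/flox podocytes 0 of 34 passed, where 0.163% of all tested genes did (0.106% higher, 0.0568% lower), with 8 of 34 at an unadjusted p under 0.05, again all higher, where 15.9% of all tested genes were (8.25% higher, 7.61% lower). The stress genes among these were Trib3 (0.52, unadjusted p = 0.0467) and Chac1 (0.55, unadjusted p = 0.0463), and the enzymes were Asns (0.25, unadjusted p = 0.0108), Aldh18a1 (0.31), Gpt2 (0.38) and Cbs (0.65), beside Slc3a2 (0.29) and Eprs (0.23, unadjusted p = 0.0112). The 3 further probes of Eprs gave 0.03, 0.14 and -0.22. Treated and untreated samples did not overlap for 3 genes in Tsc2Δpodocyte podocytes (Asns, Slc3a2 and Slc7a1, all higher with rapamycin), where 14.5% of all tested genes did not (8.09% higher, 6.4% lower), and for 2 in Tsc2flox/flox podocytes (Eprs and Xpot, both higher), where 10.7% did not (5.53% higher, 5.21% lower). By the t-test of the study's general methods without adjustment, 6 and 5 genes were higher. The share of all tested genes by that t-test is not given, so these counts are not read as a response of these genes. The median difference of the 6 transporters was 0.36 in Tsc2Δpodocyte and 0.17 in Tsc2flox/flox podocytes, and that of all tested genes 0.01 and 0.00. These comparisons share their samples with those between the genotypes. Endothelial marker means in Tsc2Δpodocyte samples were -1.38 to 0.61 without treatment and -2.37 to -1.63 with it, and in Tsc2flox/flox samples -2.05 to 0.82 and -2.19 to -1.25. None of the 10 endothelial markers passed in limma, with 6 and 7 at an unadjusted p under 0.05, and their part in these values was not tested.

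Other genes of the pathway were read from lists of the same kind. Of 20 tested ATF4 targets outside the 36, 6 rose and 1 fell without treatment, where 10.3% of all tested genes rose and 9.2% fell. Between the treated genotypes 2 rose and 1 fell, where 6.2% and 4.97% of all tested genes did. Slc7a11, the cystine transporter, rose by 2.61 and with rapamycin by 2.10 (adjusted p = 0.000524 and 0.00569). Its Tsc2flox/flox means were dim, -3.42 without treatment and -3.49 with rapamycin, and which factor raised it was not tested. Lonp1, a mitochondrial protease, rose by 0.66 (adjusted p = 0.000919) and Rhbdd1, an intramembrane protease, by 0.56 (adjusted p = 0.00232), whereas Jdp2, a repressor of the same leucine zipper class, was lower (difference -0.54, adjusted p = 0.00214). With rapamycin Jdp2 was again lower (difference -0.52, adjusted p = 0.0068), and Eif4ebp1, a repressor of translation that mTORC1 phosphorylates, was higher (difference 0.58, adjusted p = 0.00237). The median of the 20 genes without treatment was 0.10.

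The 16 other cytosolic synthetases and scaffold proteins gave 0 calls in limma without treatment, with 2 at an unadjusted p under 0.05, where 34.4% of all tested genes were, and 0 calls with rapamycin, with 1, where 27.3% were. Lars (leucine) came nearest, with a difference of 0.42 (adjusted p = 0.0536), followed by Aimp1, a scaffold protein, with -0.15 (adjusted p = 0.120), Farsa (phenylalanine) with -0.19 (adjusted p = 0.290) and Rars (arginine) with 0.14 (adjusted p = 0.372). Their median was -0.05 beside 0.20 for the 8 genes of tRNA charging and export above. Of 17 mitochondrial synthetases none rose and 2 fell without treatment, where 10.3% of all tested genes rose and 9.2% fell. The 2 were Hars2 (difference -0.65, adjusted p = 0.000184) and Pars2 (difference -0.26, adjusted p = 0.0171). With rapamycin Hars2 was again lower (difference -0.66, adjusted p = 0.000692) and Lars2, the leucine enzyme, was higher (difference 0.27, adjusted p = 0.0408). Between the treated genotypes 6.2% of all tested genes were higher and 4.97% lower. Yars2 and Sars2 differed by -0.17 and -0.19 and did not pass.

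Upstream of ATF4, none of the 4 eIF2alpha kinases passed at the level of mRNA. Arrays do not measure the activity of these kinases or the phosphorylation of eIF2alpha. Eif2ak4, the GCN2 kinase of amino acid shortage, differed by -0.03 (95% confidence interval -0.22 to 0.17), Eif2ak3, the PERK kinase of the endoplasmic reticulum, by -0.35 (-0.83 to 0.14), Eif2ak1, which senses haem, by 0.27 (0.04 to 0.50, adjusted p = 0.0969) and Eif2ak2, which senses double-stranded RNA, by 0.17 (-0.22 to 0.55). Of the 14 genes of eIF2alpha phosphorylation, its reversal and its exchange factor, 1 rose and 1 fell. Among all tested genes 10.3% rose and 9.2% fell. Impact, which restrains GCN2, rose by 0.61 (adjusted p = 0.0263) and Eif2b2, a subunit of the exchange factor, was lower (difference -0.28, adjusted p = 0.0387). Ppp1r15a, the stress-induced subunit of the phosphatase, differed by 0.35 (adjusted p = 0.189). With rapamycin 0 of the 14 passed in limma, where 11.2% of all tested genes did. At an unadjusted p under 0.05 there were 4 of the 14, where 27.3% of all tested genes were.

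In the other arms of the unfolded protein response, those of ATF6 and XBP1, 1 of 12 genes rose without treatment and 0 fell. Among all tested genes 10.3% rose and 9.2% fell. The 1 gene was Sdf2l1 of the endoplasmic reticulum (difference 0.53, adjusted p = 0.00272). Dnajc3 (0.30, adjusted p = 0.0668), Hspa5, the chaperone BiP (0.26, adjusted p = 0.0895), and Edem1 (0.29, adjusted p = 0.0983) did not pass. With rapamycin 0 of the 12 passed in limma, where 11.2% of all tested genes did. At an unadjusted p under 0.05 there were 3 of the 12, where 27.3% of all tested genes were. Of 13 other folate and glycine enzymes 2 rose and 1 fell without treatment, beside the same 10.3% and 9.2% of all tested genes. Aldh1l2, the mitochondrial formyltetrahydrofolate dehydrogenase, rose by 1.34 (adjusted p = 0.000989), and Aldh1l1, its cytosolic counterpart, by 1.59 (adjusted p = 0.0352), whereas Mthfd2l was lower (difference -0.43, adjusted p = 0.0198). Shmt1, the cytosolic counterpart of Shmt2, differed by -0.57 (adjusted p = 0.0805). With rapamycin 1 of the 13 was higher, where 6.2% of all tested genes were. It was Gcat of glycine and threonine breakdown (difference 0.50, adjusted p = 0.00816). Between treated and untreated Tsc2Δpodocyte podocytes 4 genes of the 6 lists (16, 17, 14, 20, 13 and 12 tested genes) passed. Among all tested genes 3.51% did (1.97% higher, 1.53% lower). Aldh1l2 was lower with rapamycin (difference -0.97, adjusted p = 0.0303). Atf3, a stress-induced leucine zipper factor (0.84, adjusted p = 0.0217), Lars2 (0.42, adjusted p = 0.0188) and Ppp1r15b, the constitutive subunit of the eIF2alpha phosphatase (0.37, adjusted p = 0.0305), were higher. In Tsc2flox/flox podocytes 0 genes of these lists passed in limma, where 0.163% of all tested genes did. At an unadjusted p under 0.05 there were 1 to 3 a list, where 15.9% of all tested genes were. Lars2, Eif4ebp1, Gcat, Atf3 and Ppp1r15b were named after their values were seen.

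**Figure D4:**
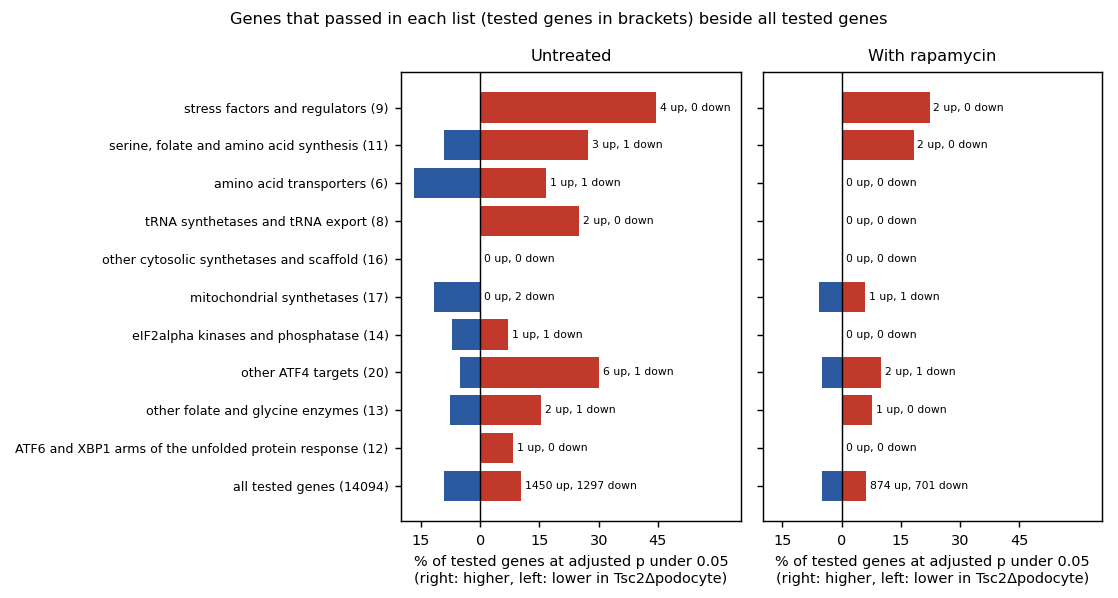
Share of the tested genes of each list that passed at an adjusted p under 0.05, higher in Tsc2Δpodocyte to the right and lower to the left of 0, without treatment (left panel) and with rapamycin (right panel), for the 4 roles, 6 further lists and all 14094 tested genes. Without treatment 44.4% of the 9 stress genes, 27.3% of the 11 synthesis enzymes and 30% of the 20 other ATF4 targets were higher. Among all tested genes 10.3% were higher and 9.2% lower. The other lists ranged from 0% higher, for both further synthetase lists, to 25%, for the tRNA genes. Of the 6 transporters 16.7% were lower and 16.7% higher, 1 gene each. Of the 17 mitochondrial synthetases 11.8% were lower, 2 genes. The lists were chosen with earlier results of these data known, so these shares are a description.

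Of the 7 tested genes whose windows hold the response element, shown at the start, Trib3 and Slc1a4 rose without treatment and Asns, Chac1, Nupr1, Aars and Gars did not pass. Of the 22 tested genes with a window but without the element, 7 rose and 2 fell. The median difference was 0.44 over the 7 and -0.0001 over the 22, and with so few genes chosen by name these medians are a description. The absence of TGATGNAA from a window of this length says nothing of elements farther away, in Ddit3 or elsewhere.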

How the data were processed

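Per the labels, total RNA of primary podocytes was labelled with Cy3 and hybridised to Agilent SurePrint G3 mouse arrays. The authors' scanner files, made with Agilent Feature Extraction 10.7.3.1, hold a background-subtracted intensity for each spot. The series' deposited table holds log2 values, shifted and centred by the authors, and was used as an alternative. Probes were named by matching their identifiers to RefSeq (32994 of 56605 probes, 22911 genes). Each log2 intensity was shifted by its array's 75th percentile, repeated spots were averaged without outlier spots, and the 27579 probes that some group detected on its 4 arrays entered the tests. A 4-group model was fitted over 16 arrays with limma 3.58.1 under R 4.3.3, with Benjamini-Hochberg adjustment over all tested probes of a comparison. The study's microarray methods name a fold of 1.5 and that adjustment. Its general methods name a t-test, which was run as an alternative, as were other normalizations, filters, priors, a replicate block and each array left out. The number of arrays limits the precision, and no spot was saturated (0 spots). The fit was tested on simulated data. Genes and lists were chosen with earlier results of these data known. Described by values on every array were genes that passed between the genotypes or in the interaction, and Atf4, Ddit3 and Asns, with up to 4 genes of each further list by the smallest untreated p and the eIF2alpha kinases. Promoters were searched in Python 3.11.15, and 1 sequence stretch is not reported here.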

Additional observations from a re-analysis of the deposited data

Results flagged for a closer look

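Of 136 groups of 4 samples (34 genes in 4 groups), 9 held a sample whose gap to the nearest other was above Dixon's critical share of the group's range; chance alone gives this in about 1 in 20 groups, so 9 is close to that rate. In Tsc2Δpodocyte samples without treatment these were Slc3a2 in replicate 4 (4.09, the others 4.13 to 4.14), Slc1a5 in replicate 2 (-0.71, the others -0.30 to -0.28) and Slc6a9 in replicate 2 (3.31, the others 2.90 to 2.94). In untreated Tsc2flox/flox samples it was Cth in replicate 1 (-0.54, the others -0.19 to -0.13). With rapamycin, Mthfd2 and Nars were low in Tsc2Δpodocyte replicate 2 (0.42, the others 1.46 to 1.58; 2.86, the others 3.23 to 3.27) and Cars in replicate 1 (4.28, the others 4.48 to 4.52). In treated Tsc2flox/flox samples Cebpb was low in replicate 1 (3.28, the others 3.38 to 3.39) and Aars high in replicate 4 (4.29, the others 3.72 to 3.76).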

How the results depend on the processing

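No difference of a gene that passed changed its sign under any alternative, and the counts below are higher and lower genes of 34. Without treatment 10 rose and 2 fell. A fold of at least 1.5 gave 5 and 0, no filter on dim probes 7 and 0, and 1 gene fell with a replicate block, with the macrophage covariate, with only the 8 arrays compared and with the adjusted t-test. Leaving out 1 array gave 7 to 11 higher and 0 to 2 lower. With rapamycin 4 rose and 0 fell. A fold of at least 1.5 and only the 8 arrays compared each left 2 higher, and no filter and the adjusted t-test each left 1. Quantile normalization and a trended, robust prior each gave 1 lower and the unadjusted t-test 2. Leaving out 1 array gave 1 to 5 higher and 0 to 1 lower. For rapamycin in Tsc2Δpodocyte podocytes, 0 genes became 2 with normexp, 2 with quantile normalization, 1 with the trended prior, 1 with the endothelial covariate and 6 with the unadjusted t-test, and in Tsc2flox/flox podocytes 3 with normexp and 5 with that t-test. The covariates were chosen after seeing the data. At a fold of at least 1.5, 1413 of 14094 tested genes passed without treatment and 787 with rapamycin, in either direction. Shares of all tested genes under the other alternatives are not given. No filter shifted the median of all probes by -0.16 without treatment. The replicate numbers were not taken as pairs, since no comparison had all 4 same-numbered correlations of deviations above 0.1: they were -0.30 to -0.0056 between the untreated genotypes and -0.02 to 0.46 between the treated ones, where 3 of 4 were above it, and at most 1 of 4 samples correlated best with its own number; the replicate block gave 10 higher and 1 lower without treatment and 4 higher with rapamycin. The cause of these changes was not tested. Genes near background, such as Cbs at -3.26 in untreated Tsc2Δpodocyte samples, rest on dim signal.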
